A study of Mus musculus with 6 samples.

Results

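Fatty acid oxidation and peroxisome genes were followed as a set of 34 genes, taken by symbol from the 24354 gene names in the FPKM table of choroid plexus (ChP) from adult and embryonic mice. All 34 are in the table, and all 34 had a mean above 1 FPKM (reads scaled to transcript length and to the depth of the library) over the 6 samples, the filter applied before testing. TRAP (translating ribosome affinity purification) recovers the mRNA bound to ribosomes that carry a tagged subunit, so that each value is a level of ribosome-bound mRNA and not of protein or of enzyme activity. There were 3 adult samples, aged 60 days by their labels, and 3 samples of embryonic day 16.5 (E16.5), all of the genotype FoxJ1:cre x bacTRAP (EGFP:L10a). In these animals Cre under the Foxj1 promoter switches on EGFP fused to the ribosomal protein L10a. The design directs the pull-down to cells that expressed Foxj1, and the levels of markers of other cell types are given below. By the study's methods each sample pooled lateral ventricle ChP of 3 adult mice or of 3 litters, whereas the design text speaks of 3 mice at each age. Where the number of animals behind a sample is not settled, p-values measure only the spread between these samples.

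Fatty acids enter mitochondria as carnitine esters and are shortened there by a repeated cycle of oxidation, hydration, a further oxidation and thiolysis, the beta-oxidation spiral. The electrons of the first oxidation pass through the electron transfer flavoprotein to the respiratory chain, and the acetyl-CoA can be burned or exchanged as ketone bodies. Very long and branched fatty acids start their breakdown in peroxisomes, organelles whose enzymes are imported from the cytosol by proteins called peroxins. The ChP epithelium, which secretes cerebrospinal fluid, is rich in mitochondria.

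Of the 34 genes, 4 passed an adjusted p of 0.05 between the ages and all 4 were lower in adult ChP. They were Echs1, Hadh and Acaa2, which encode enzymes of the last 3 steps of the mitochondrial spiral, and Hsd17b4, which encodes the peroxisomal enzyme that joins the 2 middle steps. Echs1 and Hadh had 7.46 and 7.25 times the mean FPKM at E16.5 that they had in adult. Hadha, the alpha subunit gene of the long-chain enzyme of the same steps, had a mean of 69.1 FPKM in adult ChP and 69.3 FPKM at E16.5. Its beta subunit gene Hadhb was scattered from 0 to 21.9 FPKM. Acads, a short-chain gene of the first step, overlapped between the ages, so no pattern by chain length is claimed. No gene of the 34 was called higher in adult.

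The ages were compared on log2(FPKM + 1) with limma and a trend of variance with level, fitted over all 11601 genes with a mean above 1 FPKM and adjusted over all of them by the Benjamini-Hochberg method. Changes are adult minus E16.5. The 4 calls are 11.8% of the 34 genes, where 8.83% of all genes tested were called higher at E16.5. The 0 calls in the other direction stand beside 2.12% of all genes. At an unadjusted p under 0.05 there were 12 genes lower in adult (35.3%, against 25.9% of all genes tested) and 0 higher (against 5.34%). The change was below 0 in 21 genes (61.8%, against 72.8% of all genes tested). In 11 genes every adult sample lay below every E16.5 sample (32.4%, against 31% of all genes tested), and in 2 genes, Cpt1a and Ppara, every adult sample lay above (against 7.39%). The shares with lower adult values were thus close to those of the whole table. Without E16.5 replicate 1, 2 or 3 the count of 4 was 2, beside 4.12%, 3.01% and 3.51% of all genes tested. It was 3 without adult replicate 1 (4.17% of all genes), 6 without adult replicate 2 (14.7%) and 8 without adult replicate 3 (10.7%).

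**Figure D1:**
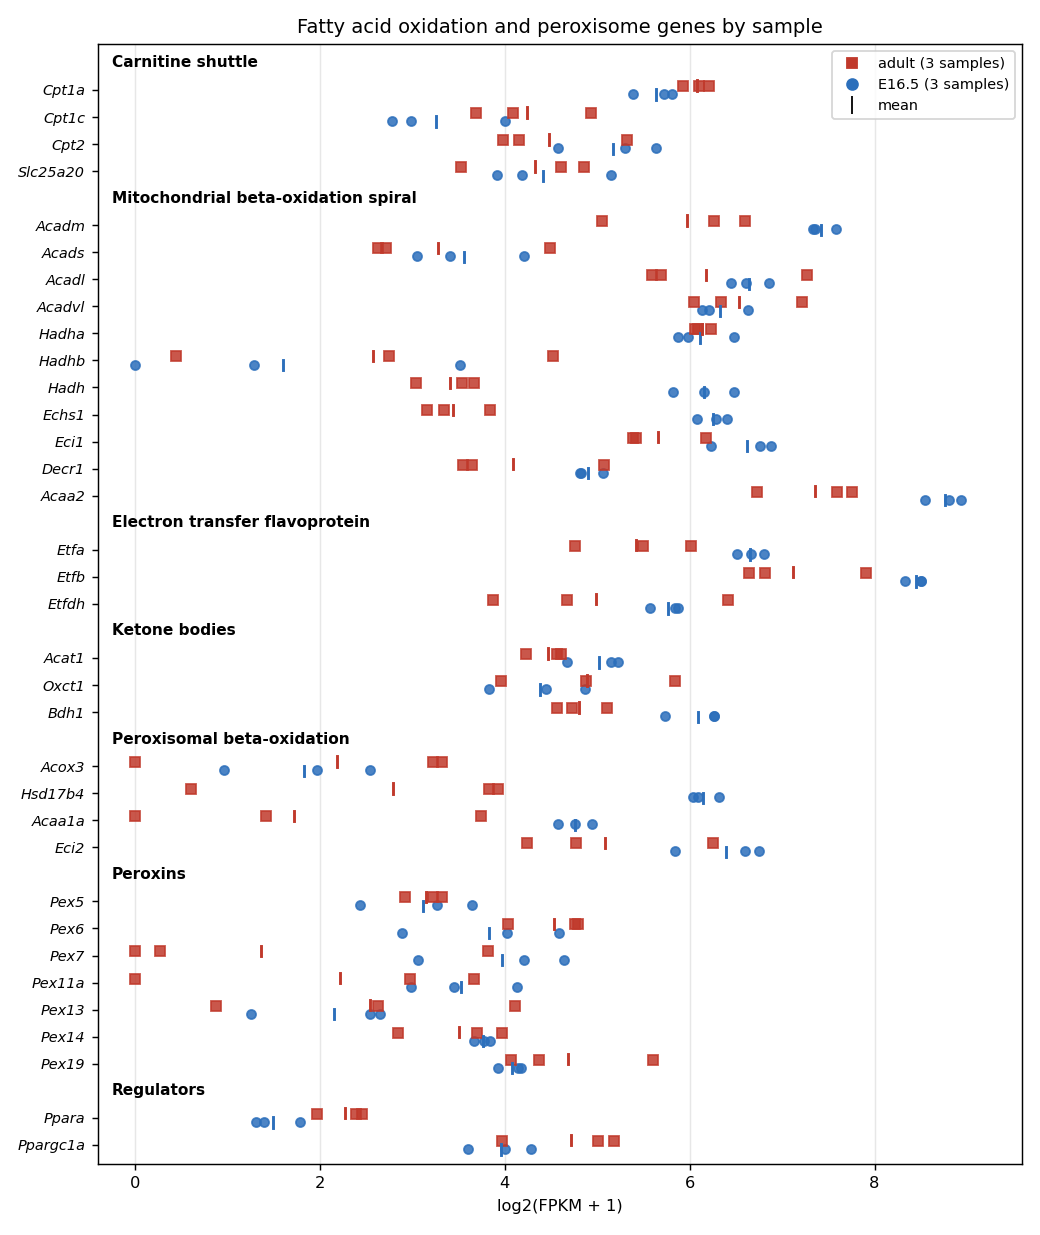
Level of each of the 34 genes in each sample, on the scale log2(FPKM + 1), grouped by role. Red squares are the 3 adult samples, blue circles the 3 E16.5 samples and vertical bars the means. Echs1, Hadh, Acaa2 and Hsd17b4 have all adult samples to the left of all E16.5 samples, and the adult samples of many genes are spread more widely than the E16.5 samples.

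The adult libraries were the shallower ones by an estimate from low FPKM values. From the steps that whole reads leave in low FPKM values, 1 read in a transcript of 1 kilobase was worth 0.113 to 0.324 FPKM in the adult samples and 0.0638 to 0.0808 FPKM in the E16.5 samples, and adult replicate 3 was the shallowest. Of the genes tested, 10.3% to 36.4% were listed at 0 in an adult sample and 3.68% to 4.02% in an E16.5 sample. The most abundant row of the table, Mir6236, took 32.7% to 51.7% of the summed FPKM in adult ChP and 13.3% to 15.002% at E16.5. Over all genes tested the median log2 change was -0.86. The median of the 34 genes was -0.50, and it was -0.29 without adult replicate 1. Among the 34, the median SD of log2(FPKM + 1) over replicates was 0.69 in adult and 0.31 at E16.5, and 27 genes had the larger SD in adult.

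Markers of the cell types that the pull-down could hold were also measured. Of 12 markers of ChP epithelium, 11 are in the table, with summed levels of 39763 to 54583 FPKM in adult ChP and 4313 to 4741 FPKM at E16.5. The list went both ways, since 5 of the 11 (Ttr, Enpp2, Kl, Prlr and Kcnj13) were called higher in adult while 2 (Calml4 and Otx2) were called lower, and most of the adult sum was Ttr and Enpp2 (14886 to 18732 FPKM). Calml4 was at 370 to 613 FPKM in adult ChP and 1716 to 1888 FPKM at E16.5. Ttr (transthyretin), the defining marker of this epithelium, was listed at 0 in all 3 E16.5 samples, where Clic6, Folr1 and Otx2 were at 340 FPKM or above. The call of Ttr rests on these 0 values. Their origin was not tested, and they are not read as absence of Ttr mRNA. Summed levels of the 10 markers of motile cilia were 207 to 389 FPKM in adult ChP and 943 to 1120 FPKM at E16.5, and Foxj1 itself was at 37.9 to 62.4 FPKM and 154 to 208 FPKM. For the 10 markers of mesenchyme the sums were 13.3 to 22.9 FPKM in adult ChP and 61.3 to 74.3 FPKM at E16.5. Neuronal and progenitor markers (10 genes) summed to 3.38 to 9.88 FPKM and 30.0 to 122 FPKM, with Tubb3 and Stmn2 near 0 outside E16.5 replicate 1. Most of the sums of E16.5 replicates 2 and 3 was Sox2, at 25.3 and 26.4 FPKM. Red blood cell markers (5 in the table) summed to 0 to 6.49 FPKM and 54.1 to 324 FPKM, and the 8 cell cycle markers to 18.1 to 31.1 FPKM and 43.9 to 79.6 FPKM. Endothelial markers (8 genes) summed to 0.435 to 18.5 FPKM and 12.7 to 40.0 FPKM. Most of the E16.5 sums was Kdr alone, at 12.3 to 36.7 FPKM, while Pecam1 and Cldn5 were above 0 only in adult replicate 2. Macrophage markers (9 genes) summed to 0.0695 to 6.82 FPKM and 0.584 to 8.42 FPKM. Glial markers (8 genes) summed to 7.19 to 97.5 FPKM and 12.1 to 25.7 FPKM, the highest value being adult replicate 3 with 58.7 FPKM of Mbp. The part of these cells in the levels below was not tested. In bulk samples, fewer cells of a type and less RNA per cell cannot be told apart.

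For Echs1 and Hadh, the calls that held throughout, and for Hadha, Hadhb and Acadm, other enzymes of the spiral, the DNA before the gene start is shown, so that the genes that fell can be set beside genes that were not called. Windows of 300 bases, 250 before and 50 after each start, were taken from RefSeq on GRCm38.p6, the build the authors call mm10, and matched 29 of the 34 genes in 32 windows. Acaa2, Hsd17b4, Acat1, Decr1 and Pex19 had no window. The stretches printed stop at the first annotated start, read 5′ to 3′, and carry capitals where a named motif was found on either strand. In the first 3 the capitals are the GC box GGGCGG or its complement CCGCCC. In Acadm they are TGACCTT, the complement of AAGGTCA, an extended nuclear receptor site of the kind that ERR recognises.
Hadha-Hadhb shared window, chr5:30155163-30155247, plus strand: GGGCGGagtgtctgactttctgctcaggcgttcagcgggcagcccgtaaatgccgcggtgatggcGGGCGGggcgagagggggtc
Hadh, chr3:131272102-131272351, minus strand: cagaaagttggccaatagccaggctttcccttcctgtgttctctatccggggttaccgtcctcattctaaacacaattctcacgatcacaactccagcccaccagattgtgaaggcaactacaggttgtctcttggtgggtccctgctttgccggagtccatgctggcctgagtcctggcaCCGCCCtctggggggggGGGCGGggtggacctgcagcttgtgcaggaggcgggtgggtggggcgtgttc
Echs1, chr7:140116477-140116671, minus strand: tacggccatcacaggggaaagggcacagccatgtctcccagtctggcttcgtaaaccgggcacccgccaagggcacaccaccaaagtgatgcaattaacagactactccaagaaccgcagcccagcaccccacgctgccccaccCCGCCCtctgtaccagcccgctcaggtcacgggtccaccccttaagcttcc
Acadm, chr3:153944644-153944893, minus strand: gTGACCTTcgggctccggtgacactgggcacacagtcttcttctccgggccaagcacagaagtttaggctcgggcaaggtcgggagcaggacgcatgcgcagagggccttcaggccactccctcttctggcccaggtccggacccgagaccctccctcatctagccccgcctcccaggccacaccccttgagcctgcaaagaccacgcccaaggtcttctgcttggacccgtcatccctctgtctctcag
The Hadha-Hadhb stretch is the whole 85 bases between 2 genes that are read in opposite directions.

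These windows were mostly rich in GC. The GC box stood in 25 of the 32 windows (78.1%), of 24 genes, where 35.7% of all 32851 promoter windows of the same length held it. The median GC content was 59.0% in the windows of these genes and 52.7% in all windows. The TATA box TATAAA was in 1 window, that of Pex14 (3.13%, against 13.6% of all windows). AAGGTCA was in 1 window, that of Acadm (3.13%, against 4.72%), and the direct repeat of AGGTCA spaced by 1 base in 0 (against 0.0396%). The motif of the factor NRF1, searched as GCGC and TGCGC with 1 base of any kind between them, was in the windows of Etfb, Etfdh and Ppara (9.38%, against 4.60%). A match is a description of letters and not a site of binding. The promoters of Echs1 and Hadh, which fell, and of Hadha, which was not called, all held a GC box.

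The carnitine shuttle, which brings long-chain fatty acids into mitochondria, had no called gene. It holds 4 of the genes, and only 2.12% of all genes tested were called higher in adult and 8.83% lower. Cpt1a encodes the liver form of carnitine palmitoyltransferase 1, the rate-controlling enzyme of the shuttle on the outer mitochondrial membrane. Its levels were 59.9, 67.6 and 72.9 FPKM in adult ChP and 40.7, 55.0 and 51.8 FPKM at E16.5. All adult samples lay above all E16.5 samples, but the log2 change of 0.44 (standard error, SE, 0.29, 95% confidence interval -0.24 to 1.13) had a limma adjusted p of 0.335. Cpt1c, the brain form, which lies in the endoplasmic reticulum and has little catalytic activity, was at 11.9, 15.98 and 29.5 FPKM in adult ChP and 6.95, 15.002 and 5.86 FPKM at E16.5, and the ages overlapped. Within each library Cpt1a exceeded Cpt1c by 1.28 to 2.24 on the log2(FPKM + 1) scale in adult and by 1.81 to 2.94 at E16.5. Cpt2, the inner membrane enzyme that returns the fatty acid to CoA, was at 14.7 to 39.0 FPKM in adult ChP and 22.8 to 48.7 FPKM at E16.5. Slc25a20, the carrier that exchanges acylcarnitine for carnitine, was at 10.6 to 27.9 FPKM and 14.1 to 34.5 FPKM. The intervals of their changes, -1.86 to 0.49 for Cpt2 and -1.35 to 1.18 for Slc25a20, leave room for changes of more than 1 log2 unit.

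The first oxidation of the spiral is shared among acyl-CoA dehydrogenases of different chain length. Acadvl, for very long chains, was at 64.9, 80.2 and 148 FPKM in adult ChP and 98.4, 69.1 and 73.0 FPKM at E16.5. Acadl, for long chains, was at 47.2, 153 and 50.5 FPKM in adult ChP and 96.6, 86.3 and 115 FPKM at E16.5. Both overlapped between the ages. Acadm, for medium chains, was at 96.2, 76.0 and 32.1 FPKM in adult ChP and 161, 191 and 163 FPKM at E16.5. Its adult samples all lay below the E16.5 samples, with a log2 change of -1.45 (SE 0.42, limma adjusted p = 0.0661), and without adult replicate 3, its lowest sample, the adjusted p was 0.0440, while leaving out other samples gave up to 0.208. Acads, for short chains, was the lowest of the 4 at 5.20 to 21.5 FPKM in adult ChP and 7.26 to 17.5 FPKM at E16.5. Acadvl shares 26.9% of its 50-base stretches with Dvl2, which overlaps it on the other strand, so that its level is less certain than that of the others.

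The middle and last steps have separate enzymes for long and for shorter chains. Echs1 (chromosome 7, 140105710 to 140116476, minus strand), the enoyl-CoA hydratase of short chains, was at 7.93, 13.3 and 9.12 FPKM in adult ChP and 66.4, 76.7 and 83.4 FPKM at E16.5. The highest adult sample was thus far below the lowest E16.5 sample, and the log2 change was -2.81 (SE 0.37, limma adjusted p = 0.00750). Hadh (chromosome 3, 131233419 to 131272101, minus strand), the hydroxyacyl-CoA dehydrogenase of short and medium chains, was at 10.6, 11.7 and 7.21 FPKM in adult ChP and 55.6, 88.4 and 70.0 FPKM at E16.5, a log2 change of -2.74 (SE 0.39, limma adjusted p = 0.00928). Both were called in all 19 alternatives, with an adjusted p of at most 0.0490 for Echs1 and 0.0491 for Hadh, and their log2 changes ranged from -3.59 to -2.29 and from -3.52 to -2.20. Among all genes tested, the changes of Echs1 and Hadh stood at percentiles 8.96 and 9.54, counted from the largest fall, so many other genes fell further. The other called genes, Acaa2 and Hsd17b4, stood at percentiles 34.2 and 5.03. In the exact permutation test of a single gene, 3 samples against 3 cannot give a p below 0.1, the value that Echs1 and Hadh had.
Acaa2 (chromosome 18, 74779197 to 74806208, plus strand), the mitochondrial thiolase that cuts off acetyl-CoA, was the most abundant of the 34 genes at both ages. It was at 105, 215 and 192 FPKM in adult ChP and 490, 446 and 374 FPKM at E16.5. Its log2 change was -1.41 (SE 0.32, limma adjusted p = 0.0368). The call was lost without adult replicate 1 (adjusted p = 0.0531) or without any 1 of the E16.5 replicates 1, 2 and 3 (in that order 0.130, 0.124 and 0.0887), and it was lost in 10 of 19 alternatives in all. The others were median-ratio scaling (0.0591), quantile normalization (0.0864), no filter (0.0584), no trend (0.106), the replicate block (0.0625) and a threshold of 0.01.

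Hadha (chromosome 5, 30118304 to 30155162, minus strand) and Hadhb (chromosome 5, 30155248 to 30184593, plus strand) encode the alpha and beta subunits of the mitochondrial trifunctional protein, which carries out the same 3 steps on long chains, and they start on either side of the 85-base window printed above. Hadha was at 67.3, 74.4 and 65.7 FPKM in adult ChP and 62.4, 57.5 and 88.1 FPKM at E16.5. Its log2 change was 0.02, with an interval of -0.67 to 0.71, and it turned negative in 5 of 19 alternatives, to -0.80 after rescaling to the same sum. Hadhb was at 21.9, 5.73 and 0.358 FPKM in adult, at 1.44 and 10.4 FPKM in E16.5 replicates 1 and 3, and listed at 0 in E16.5 replicate 2. The subunit genes were therefore read at unequal levels in every library, Hadha being higher by 1.57 to 5.62 on the log2(FPKM + 1) scale in adult and by 2.96 to 5.87 at E16.5, with no separation of the ages. Hadhb shares 19.7% of its 50-base stretches with other genes, most with Gm13910, and Hadha 0.341%. The part of this sharing in the low values of Hadhb was not tested.
The contrast of Echs1 and Hadh with Hadha was seen within single libraries, where the scaling between libraries has no part. On the log2(FPKM + 1) scale the difference of Echs1 to Hadha was -2.94, -2.40 and -2.72 in the adult samples, while at E16.5 it was 0.09, 0.41 and -0.08. The difference of Hadh to Hadha was -2.55, -2.57 and -3.02 in adult and -0.16, 0.61 and -0.33 at E16.5. These comparisons were chosen after the values were seen and have no test.

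**Figure D2:**
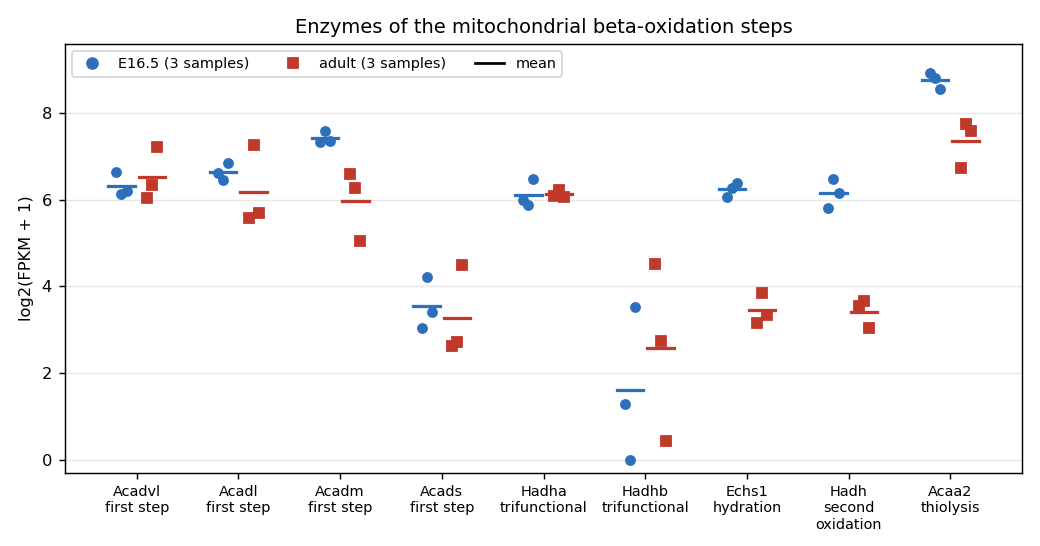
Levels of the enzymes of the mitochondrial beta-oxidation steps in each sample, as log2(FPKM + 1), with blue circles for E16.5, red squares for adult and a line at the mean. Echs1, Hadh and Acaa2 are lower in all adult samples, Hadha is at the same height at both ages, and Hadhb is scattered from 0 to 21.9 FPKM.

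Enzymes that prepare unsaturated fatty acids for the spiral had smaller differences. Eci1, the enoyl-CoA isomerase, was at 42.0, 71.4 and 40.8 FPKM in adult ChP and 117, 107 and 73.9 FPKM at E16.5, without overlap (log2 change -0.96, limma adjusted p = 0.115). Decr1, the dienoyl-CoA reductase, was at 10.7 to 32.6 FPKM in adult ChP and 27.2 to 32.4 FPKM at E16.5, and 1 adult sample reached above the E16.5 samples.

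The electron transfer flavoprotein takes electrons from the acyl-CoA dehydrogenases, and its genes were lower in most adult samples without passing the test. Etfb, the beta subunit, was at 98.8, 239 and 112 FPKM in adult ChP and 363, 361 and 321 FPKM at E16.5 (log2 change -1.33, standard error 0.36, limma adjusted p = 0.0561). Without adult replicate 2, its highest adult sample, the adjusted p was 0.0128, and with other samples left out it was as high as 0.177. Etfa, the alpha subunit, was at 26.1, 44.1 and 63.7 FPKM in adult ChP and 100, 111 and 90.3 FPKM at E16.5 (log2 change -1.23, standard error 0.38, limma adjusted p = 0.0757, 0.0295 without adult replicate 3 and up to 0.213 without another sample). Neither overlapped between the ages, and the difference of Etfa to Etfb within a library was -2.41 to -0.80 in adult and -1.85 to -1.70 at E16.5. Etfdh, which passes the electrons on to ubiquinone, was at 13.6 to 84.1 FPKM in adult ChP and 46.4 to 57.5 FPKM at E16.5, so that the adult samples lay on both sides. Of the 50-base stretches of Etfb, 44.8% are shared with other genes, most with Gm45233, which overlaps it on the same strand.

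Ketone bodies are made and used through Acat1, Oxct1 and Bdh1, and no member of this group was called. With 2.12% of all genes tested called higher in adult and 8.83% lower, 0 calls among 3 genes are no trait of the group. Bdh1, the hydroxybutyrate dehydrogenase, was at 25.6, 22.7 and 33.5 FPKM in adult ChP and 52.4, 75.6 and 75.7 FPKM at E16.5. The ages did not overlap, and its log2 change of -1.28 (SE 0.34) had a limma adjusted p of 0.0513. Over the 19 alternatives its adjusted p ran from 0.0116 to 0.151, and with single samples left out from 0.0311 (without adult replicate 3) to 0.147. Acat1, the acetoacetyl-CoA thiolase, was at 17.7 to 23.4 FPKM in adult ChP and 24.5 to 36.3 FPKM at E16.5 (log2 change -0.55, limma adjusted p = 0.342). Oxct1, the CoA transferase with which tissues other than liver take up acetoacetate for energy, was at 28.4, 56.3 and 14.5 FPKM in adult ChP and 13.3, 28.3 and 20.8 FPKM at E16.5, with overlap. Oxct1 shares 11.2% of its 50-base stretches with BC037032 and Bdh1 11.1% with Gm15743, each overlapping on the other strand. Of 10 pairs of genes compared within libraries, Oxct1 and Bdh1 were the only pair whose log2 ratio did not overlap between the ages. Oxct1 minus Bdh1 was 0.15, 1.27 and -1.15 in adult and -1.91, -1.39 and -1.81 at E16.5, a difference of 1.79 (exact permutation test, two-sided, p = 0.1, the smallest that 3 against 3 allows, and 0.67 adjusted over the 10 pairs). Leaving out adult replicates 1, 2 and 3 in turn gave 2, 4 and 3 such pairs, and leaving out E16.5 replicate 1 or 2 gave 2 or 3. Relabelling 3 against 3 samples separates a pair fully in a share of 0.1 of all splits, and in a larger share with a sample left out. These counts are therefore not read as a trait of the pairs.

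Among the peroxisomal enzymes, Hsd17b4 (chromosome 18, 50128201 to 50196269, plus strand), the D-bifunctional protein that hydrates and oxidises peroxisomal substrates, was the remaining call. It was at 13.3, 14.2 and 0.526 FPKM in adult ChP and 78.8, 66.9 and 64.4 FPKM at E16.5, with a log2 change of -3.36 (SE 0.87, limma adjusted p = 0.0494). The lowest value was in adult replicate 3, the shallowest library, and without it the log2 change was -2.27 (adjusted p = 0.00908), smaller than the -2.75 of Echs1 in the same fit. The call was lost without adult replicate 1 (adjusted p = 0.0695) or without any 1 of the E16.5 replicates 1, 2 and 3 (in that order 0.181, 0.170 and 0.159), and it was lost in 10 of 19 alternatives in all. The others were median-ratio scaling (0.0726), pseudocounts of 0.1 (0.0972) and 0.01 (0.127), no filter (0.0928), no trend (0.0692) and a threshold of 0.01.
Acaa1a, the peroxisomal thiolase, was at 12.4 and 1.68 FPKM in adult replicates 2 and 3, listed at 0 in adult replicate 1, and at 22.8, 29.7 and 26.1 FPKM at E16.5. The ages did not overlap, the log2 change was -3.04 (SE 0.94, limma adjusted p = 0.0765, 0.0197 without adult replicate 2 and up to 0.246 without another sample), and its close copy Acaa1b holds most of the 17.1% of its 50-base stretches that occur elsewhere. Eci2, an isomerase of peroxisomes and mitochondria, was at 17.9, 26.4 and 75.4 FPKM in adult ChP and 95.8, 107 and 56.5 FPKM at E16.5, the adult replicate 3 value lying within the E16.5 range (limma adjusted p = 0.157, 0.0289 without that sample and up to 0.375 without another). Eci2 shares 11.1% of its 50-base stretches with other genes, most with Gm15280. Acox3, an oxidase of branched fatty acids, was low throughout, at 8.36, 9.01 and 3.96e-05 FPKM in adult ChP and 0.955, 4.81 and 2.93 FPKM at E16.5.

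The peroxins had no called gene, where adult ChP was called higher for 2.12% of all genes tested and lower for 8.83%. Their median log2 change was 0.04, beside -0.86 for all genes, and 3 of 7 were below 0, beside 72.8% of all genes. Pex5, the receptor for most imported enzymes, was at 8.32, 6.56 and 8.98 FPKM in adult ChP and 11.5, 8.60 and 4.40 FPKM at E16.5, a log2 change of 0.04 with an interval of -1.30 to 1.38. Pex7, the receptor of a smaller group that includes the peroxisomal thiolase, was at 13.1 and 0.210 FPKM in adult replicates 1 and 2, listed at 0 in adult replicate 3, and at 23.9, 7.32 and 17.5 FPKM at E16.5 (limma adjusted p = 0.157, 0.0475 without adult replicate 1 and up to 0.388 without another sample). These receptor genes therefore differed in spread, Pex5 staying between 4.40 and 11.5 FPKM in all 6 samples. Of the docking proteins on the peroxisome membrane, Pex14 was at 6.16 to 14.7 FPKM in adult ChP and 11.7 to 13.3 FPKM at E16.5, and Pex13 at 0.834 to 16.2 FPKM and 1.38 to 5.27 FPKM. Pex14 shares 25.2% of its 50-base stretches with Gm17029, which overlaps it on the other strand. Pex6, an ATPase that pulls Pex5 back out of the membrane, was at 15.4 to 26.7 FPKM in adult ChP and 6.43 to 23.0 FPKM at E16.5. Pex19, the chaperone of peroxisomal membrane proteins, was at 15.8 to 47.6 FPKM and 14.2 to 17.1 FPKM. Pex11a, which promotes peroxisome division, was at 11.7 and 6.84 FPKM in adult replicates 1 and 2, listed at 0 in adult replicate 3, and at 6.92 to 16.5 FPKM at E16.5. All 7 peroxins overlapped between the ages. Of all genes tested, 31% had every adult sample below every E16.5 sample and 7.39% above, so most genes overlapped too.

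The 2 regulators in the set had higher mean levels in adult without passing the test. Ppara, the nuclear receptor that fatty acids activate, had the lowest mean of the 34 genes. It was at 4.26, 2.93 and 4.47 FPKM in adult ChP and 2.44, 1.64 and 1.48 FPKM at E16.5, without overlap (log2 change 0.78, interval -0.62 to 2.17, limma adjusted p = 0.403). Ppargc1a, a coactivator known for driving mitochondrial biogenesis, was at 35.3, 31.2 and 14.6 FPKM in adult ChP and 15.1, 18.5 and 11.1 FPKM at E16.5. Adult replicate 3 fell within the E16.5 range, and the log2 change was 0.76 (interval -0.37 to 1.88, limma adjusted p = 0.316, 0.0853 without adult replicate 3 and up to 0.543 without another sample).

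**Figure D3:**
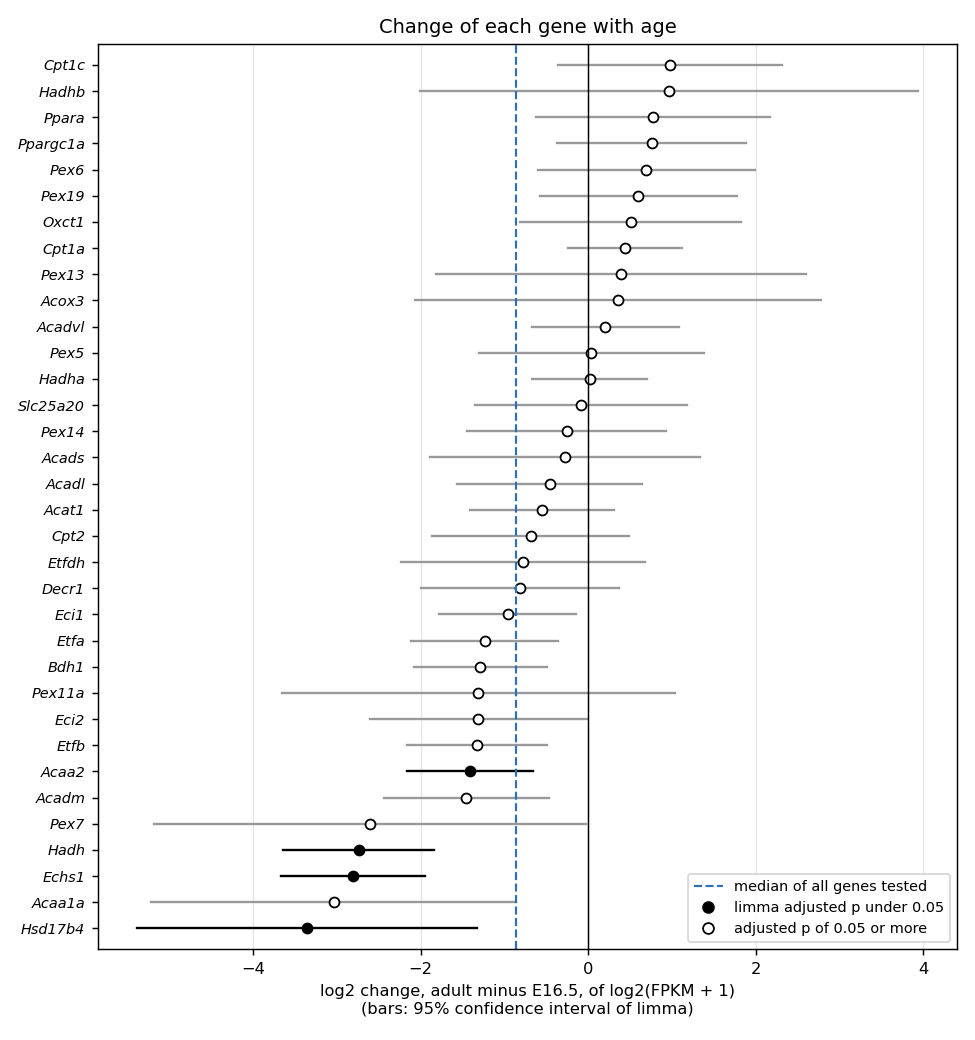
Log2 change of each of the 34 genes, adult minus E16.5 on the log2(FPKM + 1) scale, ordered by size, with bars for the 95% confidence interval of limma. Filled points are the 4 genes with an adjusted p under 0.05, and the dashed line is the median of all genes tested, -0.86.

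In order of level, the set was led by few genes. At E16.5 Acaa2 and Etfb held 20.1% and 16.03% of the summed mean FPKM of the 34 genes, and in adult 14.0% and 12.2%. The summed level of the 34 genes was 1003, 1470 and 1198 FPKM in the adult samples and 2217, 2250 and 2049 FPKM in the E16.5 samples. The median log2 change of all genes tested was also below 0, at -0.86, so the lower adult sums are not read as a trait of the set. Among all genes tested the 34 stood high, with a median percentile of level of 78.0, and 10 of them were above the 90th percentile. Hadhb, Acaa1a, Pex7 and Pex11a were each listed at 0 in a single sample.

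Further genes of the same pathways were taken from a list of 118, of which 103 were tested. Of these, 3 (2.91%, against 2.12% of all genes tested) were called higher in adult and 5 (4.85%, against 8.83%) higher at E16.5, with a median log2 change of -0.42. Acacb, the acetyl-CoA carboxylase whose product malonyl-CoA inhibits carnitine palmitoyltransferase 1, was at 28.3, 23.1 and 23.9 FPKM in adult ChP and 4.44, 3.96 and 6.34 FPKM at E16.5. Its log2 change was 2.16 (SE 0.47, limma adjusted p = 0.0318), and the adjusted p was 0.0737 without adult replicate 1 and 0.0838, 0.0879 and 0.0656 without E16.5 replicates 1, 2 and 3. Acsl6, which activates long-chain fatty acids with CoA, was at 84.7, 56.9 and 20.8 FPKM in adult ChP and 6.45, 1.10 and 6.09 FPKM at E16.5, a log2 change of 3.31 (SE 0.74, limma adjusted p = 0.0334). It was not called without any 1 sample other than adult replicate 3 (adjusted p from 0.0679 to 0.0976). Mut, the methylmalonyl-CoA mutase that completes the oxidation of odd-chain fatty acids, was at 23.0, 32.9 and 40.7 FPKM in adult ChP and 7.52, 10.04 and 7.16 FPKM at E16.5 (log2 change 1.82, limma adjusted p = 0.0412, and from 0.0545 to 0.106 without any 1 sample other than adult replicate 3). All 3 lay above every E16.5 sample in every adult sample.
Lower in adult were Hsd17b10, a mitochondrial hydroxyacyl-CoA dehydrogenase, and Hacl1, a lyase of peroxisomal alpha-oxidation. Hsd17b10 was at 38.2, 13.2 and 26.3 FPKM in adult ChP and 190, 133 and 166 FPKM at E16.5 (log2 change -2.71, limma adjusted p = 0.0127, and 0.0555 and 0.0533 without E16.5 replicates 1 and 3). Hacl1 was at 0.106, 7.47 and 5.0004 FPKM in adult ChP and 31.7, 39.3 and 40.4 FPKM at E16.5 (log2 change -3.31, limma adjusted p = 0.0416, and from 0.145 to 0.160 without 1 of the E16.5 replicates). Fabp3, a fatty acid binding protein, and Pxmp2, a pore of the peroxisome membrane, were listed at 0 in all 3 adult samples, against 15.9 to 25.9 FPKM and 4.98 to 8.05 FPKM at E16.5 (limma adjusted p = 0.00795 and 0.0242). Pxmp2 had an adjusted p of 0.0576 without adult replicate 1. Mcee, the epimerase that acts before Mut, was the remaining call, at 299, 140 and 267 FPKM in adult ChP and 685, 817 and 430 FPKM at E16.5 (limma adjusted p = 0.0477, and 0.0592 to 0.178 without any 1 sample), and it is named after its values were seen. Mut and Mcee, which act in sequence on methylmalonyl-CoA, were thus called in opposite directions, both with calls that single samples could remove.

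**Figure D4:**
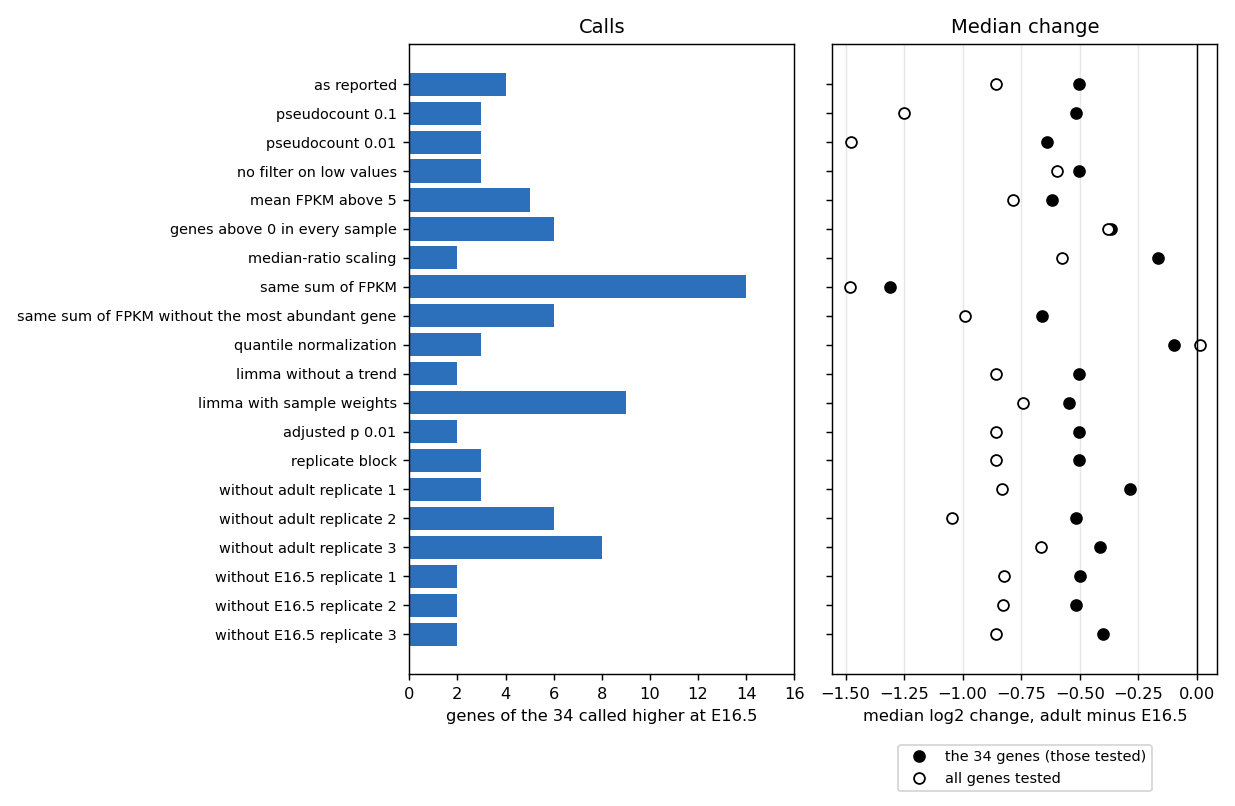
Number of the 34 genes called higher at E16.5 (bars, left) and median log2 change of these genes and of all genes tested (points, right) as reported and under 19 alternatives. The number runs from 2 to 14, where 1.14% to 27.9% of all genes tested were called higher at E16.5. The median of the 34 genes stays below 0 under all alternatives.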

How the data were processed

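TRAP-seq was carried out on 3 adult and 3 E16.5 samples of ChP, grouped by their titles. By the paper's methods and the submitters' processing notes, the authors aligned single-end reads to mm10 with STAR 2.4.0 and deposited gene FPKM made with Cuffquant of Cufflinks. For their read counts the authors named an mm10 gene annotation, without provider or release. The annotation behind the FPKM and any further scaling are not given in the sources used here. No count of reads was analysed here, and depth was estimated from low FPKM in 2520 genes with a single transcript. The worth of 1 read was chosen for each library as the value that fitted these low FPKM best. With it, 65.1% to 82.1% of the 35 to 63 low values per library fell at most 0.1 from a whole number of reads. The 20% expected by chance holds for a value fixed beforehand, so this share does not test the estimate.

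Genes with a mean above 1 FPKM (11601) were compared on log2(FPKM + 1), a scale that understates changes of low genes, using limma 3.58.1 (R 4.3.3) with its trend option, no covariates and a Benjamini-Hochberg adjusted p of 0.05. The fit was run on simulated data in which each gene had the same spread at both ages. In the real samples the median SD of the 34 genes was 0.69 in adult and 0.31 at E16.5. The simulation therefore cannot check the fit under unequal spread. The 34 genes, the wider list of 118 and the marker lists (ChP epithelium, motile cilia, mesenchyme, endothelium, macrophages, red blood cells, neurons and progenitors, cell cycle, glia) were chosen with earlier results of these data known. The rule for named genes took all 34 genes and up to 4 called genes of the wider list in each direction. Gene positions and shared 50-base stretches came from the GENCODE annotation of mm10, and promoters from RefSeq. Alternatives changed the pseudocount, filter, scaling, variance model, threshold, block and samples.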

Additional observations from a re-analysis of the deposited data

How the results depend on the processing

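No gene of the 34 was called higher in adult under any of the 19 alternatives, where 0.483% to 4.90% of all genes tested were. The number of the 34 with an unadjusted p under 0.05 and a higher adult level was 0 to 5. The number called higher at E16.5 was 4 as reported, and the shares of all genes tested follow in brackets. It was 3 with a pseudocount of 0.1 (7.44%) or 0.01 (6.57%) and with no filter (5.43%). Quantile normalization (4.34%) and a replicate block (3.90%) also gave 3, and a mean above 5 FPKM gave 5 (10.1%). The number was 6 among genes above 0 in every sample (6.87%) and 2 under median-ratio scaling (5.69%). Rescaling to the same sum of FPKM gave 14 (27.9%), and 6 without the most abundant row (11.5%). It was 2 without a trend (8.18%), 9 with sample weights (11.2%) and 2 at an adjusted p of 0.01 (1.14%). When single samples were left out it was between 2 and 8 (3.01% to 14.7%). The median log2 change of the 34, -0.50, was -0.17 under median-ratio scaling, -1.31 after rescaling to the same sum and -0.10 under quantile normalization, where the median of all genes was 0.013. The number of pairs whose ratio did not overlap, 1, was between 1 and 4 when single samples were left out. With fewer samples a full separation is easier to reach by chance.
Signs turned in 14 of the 34 genes, all uncalled. After rescaling to the same sum they were -0.38 for Cpt1a, -0.61 for Acadvl, -0.80 for Hadha, -0.28 for Oxct1 and for Pex13, -0.17 for Acox3, -0.69 for Pex5, -0.091 for Pex6, -0.19 for Pex19 and -0.027 for Ppargc1a, and without the most abundant row -0.14 for Hadha and -0.10 for Pex5. Median-ratio scaling and quantile normalization gave 0.24 and 0.37 for Slc25a20, 0.034 and 0.36 for Acads, and 0.057 and 0.42 for Pex14. Acox3 was -0.34 and -1.39 at pseudocounts of 0.1 and 0.01, and Pex13 -0.11 with sample weights. With each sample left out, Slc25a20 ranged from -0.35 to 0.31, Acads from -0.88 to 0.050, Acadvl from -0.13 to 0.45, Hadha from -0.10 to 0.20, Hadhb from -0.0048 to 2.03, Acox3 from -0.21 to 1.45, Pex5 from -0.30 to 0.30, Pex13 from -0.39 to 1.22 and Pex14 from -0.49 to 0.078. The cause of these shifts was not tested.
The labels number the replicates of both ages, but nothing ties an adult to an E16.5 sample, and the deviations of same-numbered samples had correlations of 0.000895, 0.0439 and 0.0150 across genes. With the replicate number as a block the count of 4 (8.83% of all genes tested) became 3 (3.90%). No sample set was paired on this ground. In adult replicate 3, where 1 read in a kilobase was worth 0.324 FPKM, values under 1 FPKM rest on few reads.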
